A study of Mus musculus with 23 samples.

Results

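Mitochondrial ribosomal proteins were followed in the hippocampal CA3 field of mice that carry UBB+1, a frameshifted ubiquitin with an altered tail that accumulates in neurons in Alzheimer's disease. A probe set, a group of probes to a transcript, was taken as a member when the array annotation named 1 gene only and that gene's symbol was Mrpl (large subunit) or Mrps (small subunit) followed by a digit. This gave 76 genes (47 Mrpl and 29 Mrps) and 160 probe sets of 18192 genes and 45136 probe sets in all. MOE430A arrays held 127 of these probe sets for 74 genes, MOE430B arrays held 33 for 27 genes, and 25 genes were on both, with 4 identical probe sets on both kinds of array. Mrps10 and Mrps27 were measured on MOE430B only, and probe sets that name a further gene beside a member (3 on MOE430A and 1 on MOE430B) were not counted.

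The UBB+1 tg mice were of a single transgenic line, heterozygous for a transgene under the CamKIIα promoter. The transgene is active in neurons after birth, most strongly in the forebrain, and its product is also found in brainstem nuclei. The wild-type mice were littermates without the transgene, and all mice were on the C57BL/6J background and 18 months old. CA3 was cut from stained frozen sections by laser, and 5 ng of its RNA was amplified in 2 rounds and hybridised to 1-colour Affymetrix arrays. MOE430A was run for 6 UBB+1 tg and 5 wild-type mice and MOE430B for 6 and 6, and 11 mice were on both. No source states the sex of these mice. Since the tissue held several cell types, fewer cells of a type and less RNA per cell cannot be told apart.

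Mitochondria make the core membrane subunits of the respiratory chain and the ATP synthase on ribosomes of their own. The ribosomal RNAs come from the mitochondrial genome, whereas all of the ribosomal proteins are encoded in the nucleus, made in the cytosol and imported. Many of them descend from bacterial ribosomal proteins, and others were added in the mitochondrial lineage and coat the shortened RNA core. Neurons depend on oxidative phosphorylation, and mRNAs of these proteins are found in nearly all cell types.

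Of the 76 genes, 67 had a RefSeq promoter window (GRCm38.p6, 250 bases before to 50 after the start). The window was searched on both strands for the letters GCGCANGCG of NRF1 (nuclear respiratory factor 1), CCGGAAGT of ETS factors such as GABPA and AAGATGGCG of YY1. Matches of different motifs overlapped in 0 of these promoters. These are factors known to act at promoters of nuclear genes for mitochondrial proteins. NRF1 letters were in 15 of the 67 promoters (22.4%, against 6.47% of all 27025 promoters), ETS letters in 11 (16.4% against 4.0%) and YY1 letters in 8 (11.9% against 1.49%). At least 1 of the 3 was in 32 (47.8% against 11.04%). Of the genes that the results below turn on, Mrps30, Mrps2, Mrpl23 and Mrpl49 had none of these letters in the window. Only 1 window per gene was searched. For Mrps2 (chr2:28467816-28468115, gene from 28465951) and Mrpl23 (chr7:142532782-142533081, gene from 142532467), both on the plus strand, it lay inside the gene. The sequence before the first base of Mrps2 and Mrpl23 was thus not searched. The promoters of 4 other genes are shown because they hold a motif, which is in capitals as read from either strand. They are Mrpl35 (chr6:71823735-71824034, minus strand, YY1) and Mrpl43 (chr19:45006393-45006692, minus strand, ETS), both among the probe sets with the smallest p, and Mrpl52 (chr14:54426659-54426958, plus strand, ETS) and Mrps21 (chr3:95871465-95871764, minus strand, NRF1). Mrps21, and Mrpl52 at probe sets 1415761_at and 1415762_x_at, differed most on MOE430A between the middle and low sets of arrays (described below) among wild-type mice. Mrpl52 at its brightest probe set did not.
Mrpl35: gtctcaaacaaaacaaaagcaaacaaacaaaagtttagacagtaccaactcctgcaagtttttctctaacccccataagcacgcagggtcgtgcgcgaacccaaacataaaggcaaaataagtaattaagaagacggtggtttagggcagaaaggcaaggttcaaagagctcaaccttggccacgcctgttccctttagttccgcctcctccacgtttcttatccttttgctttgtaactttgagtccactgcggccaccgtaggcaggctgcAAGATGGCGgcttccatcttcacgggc
Mrpl43: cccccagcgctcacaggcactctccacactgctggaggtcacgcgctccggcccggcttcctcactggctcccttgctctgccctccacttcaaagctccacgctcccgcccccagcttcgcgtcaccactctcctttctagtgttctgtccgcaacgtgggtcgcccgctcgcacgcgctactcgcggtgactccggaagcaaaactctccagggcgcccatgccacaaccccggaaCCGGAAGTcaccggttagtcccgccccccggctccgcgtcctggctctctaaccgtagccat
Mrpl52: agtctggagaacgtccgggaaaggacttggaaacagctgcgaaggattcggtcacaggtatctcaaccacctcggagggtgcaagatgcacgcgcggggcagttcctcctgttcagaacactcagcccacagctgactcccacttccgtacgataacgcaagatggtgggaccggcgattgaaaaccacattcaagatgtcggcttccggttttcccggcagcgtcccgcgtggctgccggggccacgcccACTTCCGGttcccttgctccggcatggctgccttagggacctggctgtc
Mrps21: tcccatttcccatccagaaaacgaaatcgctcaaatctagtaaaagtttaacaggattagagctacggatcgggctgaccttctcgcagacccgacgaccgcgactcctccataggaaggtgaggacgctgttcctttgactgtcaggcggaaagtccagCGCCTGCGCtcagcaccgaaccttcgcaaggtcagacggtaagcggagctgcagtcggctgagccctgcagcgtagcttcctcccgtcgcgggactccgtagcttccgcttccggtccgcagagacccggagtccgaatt
On MOE430A the 15 genes with NRF1 letters had a median log2 fold change of -0.15, and the 50 without of -0.29. The medians were -0.32 for 10 genes with ETS letters and -0.22 for 55 without, and -0.38 for 7 with YY1 letters and -0.21 for 58 without.

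None of the 127 member probe sets of MOE430A and none of the 33 of MOE430B differed between UBB+1 tg and wild-type mice at a false discovery rate of 10% (limma). Over all probe sets the share called was 0% on each kind of array. The lowest adjusted p of a member was 0.984 on MOE430A and 1 on MOE430B. At an unadjusted p under 0.05, limma found 6 member probe sets on MOE430A (4.72%), against 3.48% of all 22625, and 1 on MOE430B (3.03%), against 3.05% of all 22511 (1.52% higher and 1.53% lower), so that these shares lay near the background. Of the 6, 2 were higher (1.57% of the members, against 1.91% of all) and 4 lower (3.15% against 1.57%). The count on MOE430A rested on the mouse tg271: without it 23 member probe sets passed (18.1%, 20 of them lower, against 6.66% of all), and without any other single mouse 4 to 7. With array weights it was 37 (29.1%, 33 of them lower, against 10.4% of all). No member probe set had groups without overlap. Over all probe sets 0.115% lay wholly above and 0.119% wholly below wild type on MOE430A, and 0.0622% and 0.08% on MOE430B.

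By size, most genes stood slightly lower in UBB+1 tg mice on MOE430A. With each gene represented by its probe set of highest mean, the log2 fold change was below 0 in 60 of 74 genes and above 0 in 14, with a median of -0.25 and a range of -0.81 to 0.29. Over all 12392 genes the median was 0.01, and 52.4% were above 0. On MOE430B 15 of 27 genes were below 0 and 12 above, with a median of -0.01, the same as over all 9607 genes. MOE430A and MOE430B mostly hold different probe sets, also for a gene on both. The median standard error of a member gene was 0.25 on MOE430A and 0.13 on MOE430B, so that the typical difference on MOE430A was about as large as its error.

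**Figure D1:**
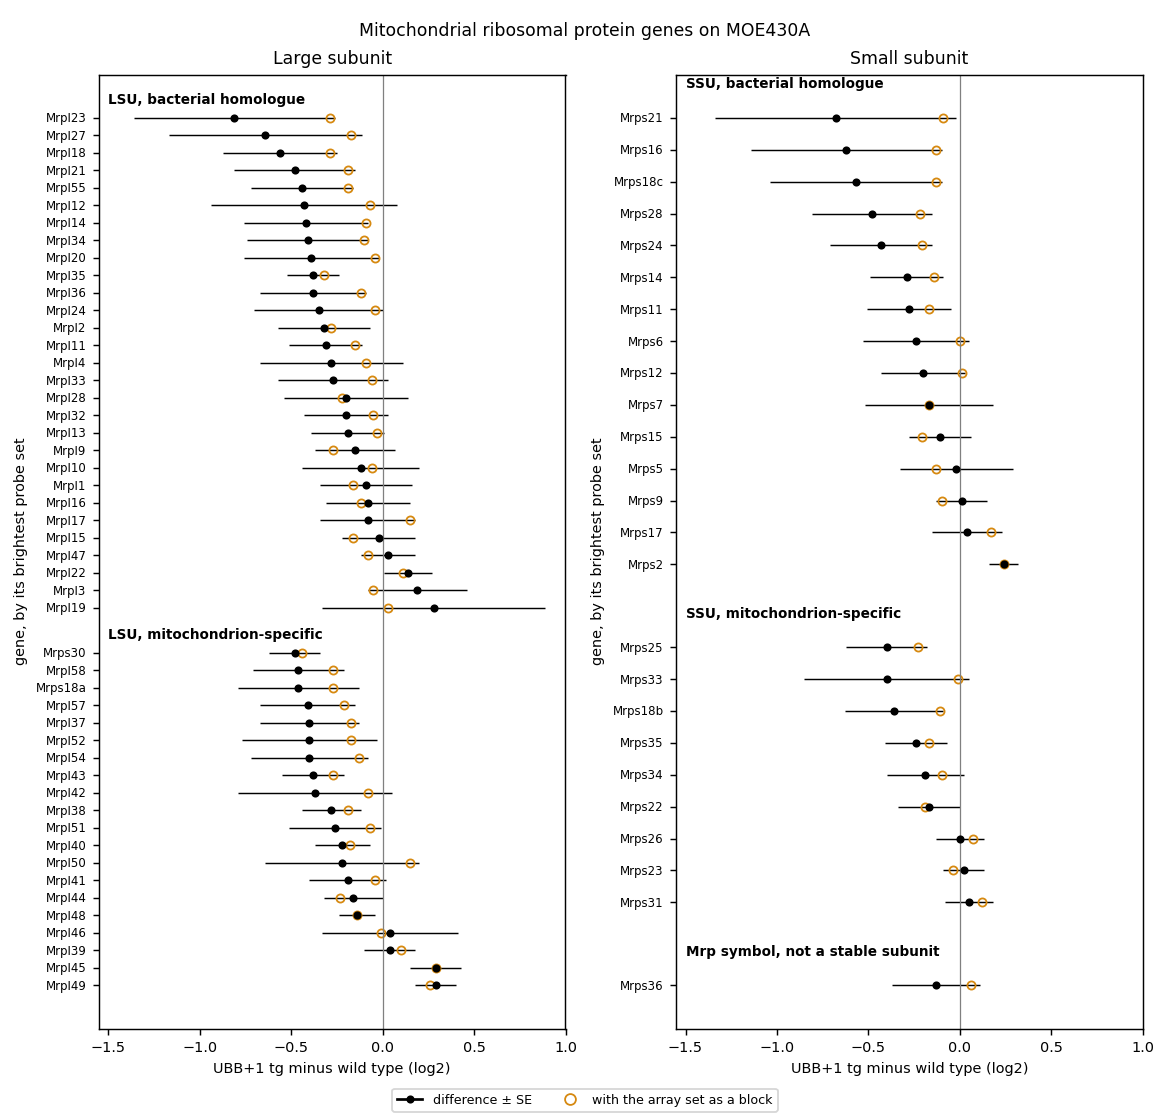
Log2 difference of UBB+1 tg minus wild type for the 74 genes on MOE430A, by subunit (LSU large, SSU small) and origin. Black points are the difference with its standard error (6 against 5 mice) and open circles the difference with the array set as a block. Black points run from -0.81 to 0.29, and most circles lie closer to 0.

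Lower values prevailed in both subunits on MOE430A. Among large-subunit proteins with a bacterial homologue, 25 of 29 genes were below 0 (median -0.28), and among those specific to mitochondria 16 of 20 (median -0.27). In the small subunit the counts were 12 of 15 (median -0.24) and 6 of 9 (median -0.19). With the array set (described below) as a block, the 4 medians were nearer to 0, at -0.10, -0.16, -0.13 and -0.10 in the same order. On MOE430B, without the block, they were -0.04, -0.03, 0.02 and 0.01, with 6 of 10, 4 of 7, 3 of 6 and 2 of 4 genes below 0. On MOE430A, at an unadjusted p under 0.05 in limma, the brightest probe sets held 1 gene lower of the 29 and 1 higher of the 15. They held 2 lower and 1 higher of the 20 and none of the 9. Over all MOE430A probe sets the shares were 1.91% higher and 1.57% lower. Mrps18a and Mrps30 carry a small-subunit symbol and belong to the large subunit, where they are counted. Mrps36, now known as a component of the 2-oxoglutarate dehydrogenase complex and not as a subunit of the ribosome, was at -0.13 (standard error 0.24).

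The smallest p on MOE430A was that of Mrps30, a large-subunit protein specific to mitochondria (probe set 1427158_at, gene on chromosome 13, 118380110 to 118387252, GRCm38.p6). Its log2 levels were 8.27, 8.09, 7.77, 8.14, 7.79 and 8.06 in UBB+1 tg mice, against 8.47, 8.18, 8.81, 8.27 and 8.76 in wild-type mice. The groups touched: the highest UBB+1 tg mouse equalled a wild-type mouse at 8.27 and lay above another at 8.18. The mean was 8.02 ± 0.20 in UBB+1 tg mice (SD, n = 6) and 8.50 ± 0.28 in wild-type mice (SD, n = 5), a log2 fold change of -0.48 (standard error 0.14, exact permutation p = 0.00649, two-sided, over 462 splits). In limma it had an unadjusted p of 0.00521 and an adjusted p of 0.984 over all probe sets.

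Mrps2, a small-subunit protein with a bacterial homologue, had the next smallest p and the opposite direction. Probe set 1420846_at was at 8.49, 8.52, 8.48, 8.38, 8.66 and 8.64 in UBB+1 tg mice and at 8.22, 8.15, 8.45, 8.35 and 8.24 in wild-type mice. A single wild-type mouse at 8.45 lay above the lowest UBB+1 tg mouse, and the others were below all 6. The log2 fold change was 0.24 (standard error 0.08, exact permutation p = 0.00866), above 0 in each array set described below. The other probe set of Mrps2, 1420845_at, was lower in the mean, at -0.16 (standard error 0.11).

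Mrpl43, a large-subunit protein specific to mitochondria, is read by the same probe set, 1415681_at, on both kinds of array. On MOE430A it was at 8.47, 9.45, 8.79, 8.87, 8.64 and 8.53 in UBB+1 tg mice and at 9.28, 8.98, 9.47, 9.08 and 9.05 in wild-type mice. On MOE430B it was at 8.29, 9.02, 8.64, 8.55, 8.41 and 8.30 in UBB+1 tg mice and at 9.47, 8.59, 9.23, 8.73, 8.62 and 9.37 in wild-type mice. UBB+1 tg mouse tg271 stood above the other 5 on both. The log2 fold changes were -0.38 (standard error 0.17, exact permutation p = 0.0628) on MOE430A and -0.47 (standard error 0.18, exact permutation p = 0.0476, over 924 splits) on MOE430B. The arrays share 11 mice and their RNA, so that these are repeat readings and not separate animals.

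Mrpl35, a bacterial-type large-subunit protein, had levels of 9.06, 8.85, 8.64, 8.81, 8.81 and 8.42 in UBB+1 tg mice and of 9.33, 8.94, 9.28, 9.41 and 8.79 in wild-type mice at probe set 1419363_a_at. Its log2 fold change was -0.38 (standard error 0.14, exact permutation p = 0.0368), with the wild-type mice at 8.79 and 8.94 inside the range of the UBB+1 tg mice. Its other probe sets were at 0.04 on MOE430A and -0.11 on MOE430B. Mrpl49, a large-subunit protein specific to mitochondria, was higher at probe set 1423218_a_at (8.53 ± 0.17 in UBB+1 tg and 8.23 ± 0.21 in wild type, log2 fold change 0.29, exact permutation p = 0.0368, n = 6 and 5) but at -0.29 at probe set 1423219_a_at.

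Mrpl45, which sits at the end of the exit tunnel and anchors the ribosome to the inner membrane, was at 6.95, 7.65, 7.30, 7.61, 7.70 and 7.72 in UBB+1 tg mice and at 7.29, 7.06, 7.31, 7.06 and 7.29 in wild-type mice. The log2 fold change was 0.29 (standard error 0.14, exact permutation p = 0.0909), and tg270 lay below all wild-type mice while the other 5 stood at or near their upper end or above it. The dim probe set 1430610_at of Mrpl38 was at -0.21 (4.10 ± 0.08 in UBB+1 tg and 4.31 ± 0.19 in wild type, exact permutation p = 0.00866, n = 6 and 5). It lay under the 25th percentile of the array, as did 11 of the 127 member probe sets on MOE430A, and the brightest probe set of Mrpl38 was at -0.28. Further probe sets by the smallest p were 1430798_x_at of Mrpl15 (0.42), 1418716_at of Mrps25 (0.28) and 1460508_at of Mrpl1 (0.11) among the higher ones and Mrps25 at 1449194_at (-0.40) and Mrpl18 (-0.56) among the lower ones, with exact permutation p of 0.119 to 0.242.

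**Figure D2:**
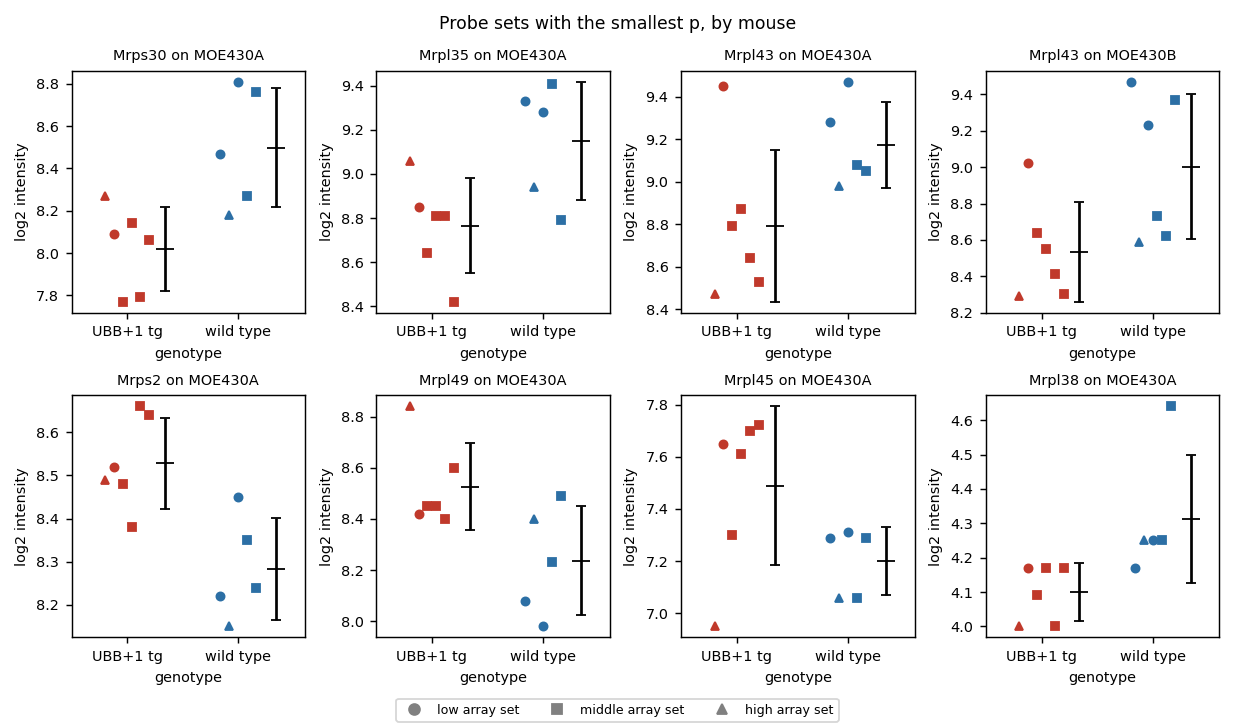
Log2 intensity in each mouse for the probe sets with the smallest p, UBB+1 tg left of wild type, with the mean and SD beside the points and the array set as the marker shape. Mrps30, Mrpl35, Mrpl43 and Mrpl38 stood lower in UBB+1 tg mice and Mrps2, Mrpl49 and Mrpl45 higher, and in every panel the groups touch or overlap.

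On MOE430B the largest differences were those of Mrpl27, which lies near the peptidyl transferase centre, and of Mrpl52, a large-subunit protein specific to mitochondria. Mrpl27 was at -0.67 (standard error 0.48) and -0.54 (standard error 0.25, exact permutation p = 0.0887) at its 2 probe sets, and at -0.64 on MOE430A. Mrpl44, a member of the RNase III family, was at -0.26 (standard error 0.14, exact permutation p = 0.11). The higher ones were small, such as Mrpl13 (0.18, exact permutation p = 0.0952, at percentile 4.10 of the array), Mrpl48 (0.25, standard error 0.19) and Mrps14 (0.30, standard error 0.29). Mrps21 (0.10), Mrps15 (0.09), Mrps5 (0.07), Mrpl17 (-0.13), Mrpl21 (-0.13), Mrps6 (-0.12) and Mrps10 (-0.18) were named by the same rule, and their exact permutation p ran from 0.156 to 0.537.

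Proteins of the functional centres were read next. The stalk proteins, which recruit translation factors, were lower in the mean with wide errors: Mrpl12 was at 8.30 ± 0.94 in UBB+1 tg and 8.73 ± 0.94 in wild type (SD, n = 6 and 5, log2 fold change -0.43), Mrpl10 at -0.12, and Mrpl11 at -0.36, -0.31, -0.28 and -0.02 at its 4 probe sets. At the exit tunnel, Mrpl23 had the largest difference of the 74 member genes on MOE430A (8.45 ± 1.07 in UBB+1 tg and 9.26 ± 0.95 in wild type, log2 fold change -0.81, standard error 0.55, exact permutation p = 0.212, n = 6 and 5) and Mrpl24 was at -0.35. Mrps12, the protein of the decoding centre known for translational accuracy, was at -0.20 (8.85 ± 0.41 in UBB+1 tg and 9.04 ± 0.42 in wild type). With the array set as a block, Mrpl12 came to -0.07, Mrpl10 to -0.06, Mrpl11 at 1417918_at to -0.05, Mrpl24 to -0.04 and Mrps12 to 0.01. In the middle array set alone Mrpl12 (0.11), Mrpl10 (0.16), Mrpl11 at 1417918_at (0.12) and Mrpl24 (0.01) turned above 0.

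Mrpl52 is among the genes that the study lists as regulated in CA3, and it was chosen for that reason. It has 4 probe sets on MOE430A, at -0.66, -0.64, -0.05 and -0.40 (standard errors 0.66, 0.63, 0.07 and 0.37), and 2 of them are also on MOE430B, at -0.76 and -0.61 (standard errors 0.65 and 0.57). The exact permutation p ran from 0.286 to 0.357 over the 6 readings. At probe set 1415761_at on MOE430A the levels were 6.99, 7.03, 5.17, 4.86, 4.52 and 4.46 in UBB+1 tg mice and 7.10, 7.01, 7.12, 4.58 and 5.0 in wild-type mice. In each genotype the mice fell into a high and a low class with nothing between 5.17 and 6.99, and 2 of 6 UBB+1 tg mice were in the high class, against 3 of 5 wild-type mice.

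These classes follow the array sets. Clustering of the arrays on all probe sets that are not members parted the mice into 3 sets on both kinds of array, and the sets are samples and not conditions. They differed in the 3'-5' difference, the log2 signal of the 3' minus the 5' control probe sets for Gapdh and beta-actin, which is larger where less of the 5' part of these mRNAs was copied. On MOE430A the low set (3.43 in UBB+1 tg, 2.65 to 2.70 in wild type) held 1 UBB+1 tg and 2 wild-type mice, the middle set (4.44 to 4.62 in UBB+1 tg, 4.54 in wild type) 4 and 2, and the high set (6.05 in UBB+1 tg, 6.10 in wild type) 1 and 1. On MOE430B the middle set held a further wild-type mouse. The low set is thus 1 of 6 UBB+1 tg mice (tg271) and 2 of 5 wild-type mice on MOE430A, and the middle set 4 of 6 and 2 of 5.

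The mean over all member probe sets differed between the sets within each genotype. On MOE430A it was 7.74 ± 0.20 in UBB+1 tg mice (SD, n = 6) and 7.92 ± 0.21 in wild-type mice (SD, n = 5). In the low set it was 8.12 in the UBB+1 tg mouse, against 8.07 and 8.20 in the wild-type mice. In the middle set it was 7.56 to 7.75 in UBB+1 tg mice, against 7.72 and 7.77 in wild-type mice, and in the high set 7.77 against 7.82. On MOE430B it was 6.62 ± 0.10 in UBB+1 tg mice and 6.71 ± 0.11 in wild-type mice (SD, n = 6 each), and the middle set was again the lowest, at 6.51 to 6.62 in UBB+1 tg mice and 6.57 to 6.65 in wild-type mice.

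**Figure D3:**
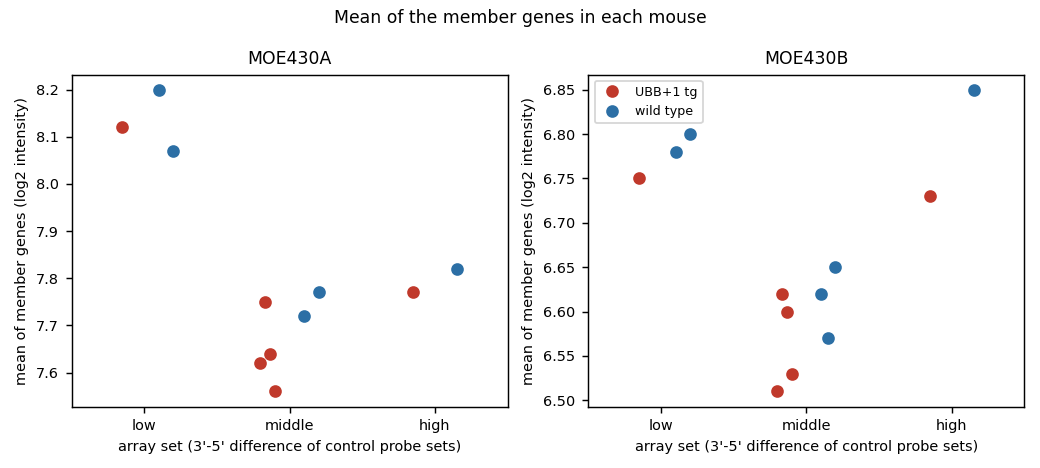
Mean log2 intensity of all member probe sets in each mouse, by array set, UBB+1 tg left of wild type. On MOE430A the 3 mice of the low set lie at 8.07 to 8.20 and all others at 7.56 to 7.82, in either genotype.

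Among wild-type mice alone the sets differed by more than the genotypes did. The middle minus the low set (2 against 2 wild-type mice, no test) had a median of -0.44 over the 74 genes on MOE430A, with 58 below 0, against -0.01 over all genes. It was -1 or lower in 16 genes and 1 or higher in 1. The lowest values were those of Mrps21 (-2.09), Mrps16 (-1.89), Mrpl23 (-1.78), Mrpl50 (-1.73), Mrpl12 (-1.65) and Mrps18c (-1.64), and the highest that of Mrpl3 (1.06). Among bacterial-type proteins of the small subunit, the same 3 genes had the largest differences between the genotypes, at -0.68 for Mrps21, -0.62 for Mrps16 and -0.57 for Mrps18c, none with a standard error under 0.47. On MOE430B the median was 0.09 over 27 genes, with Mrpl52 at -2.09 and Mrpl27 at -1.44.

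The levels did not follow the 3'-5' difference in order. In 29 of the 127 member probe sets on MOE430A (22.83%) every mouse of the middle set lay below every mouse of the low and the high set, in both genotypes, against 3.93% of all probe sets, and the reverse held for 2 (1.57%), against 3.09%. On MOE430B it was 4 of 33 (12.12%), against 2.02%, and the reverse held for 1 (3.03%), against 1.38%. The gap was over 1 on the log2 scale for 4 member probe sets on MOE430A (3.15%, against 0.398% of all) and for 2 on MOE430B (6.06%, against 0.0311% of all), both of Mrpl52. Mrps21 was at 9.47 to 9.61 in the low set, 6.82 to 7.68 in the middle set and 9.61 to 9.81 in the high set. Mrps18c was at 9.85 to 10.20, 7.99 to 8.61 and 9.82 to 9.85 in the same order of sets. Mrpl12 instead was low in the high set too, at 7.06 in the UBB+1 tg mouse and 7.97 in the wild-type mouse, against 9.93 in the UBB+1 tg mouse and 9.63 and 9.87 in the wild-type mice of the low set. Mrps2 at 1420846_at and Mrpl39 varied less, at 8.15 to 8.66 and 10.83 to 11.59 over all mice.

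**Figure D4:**
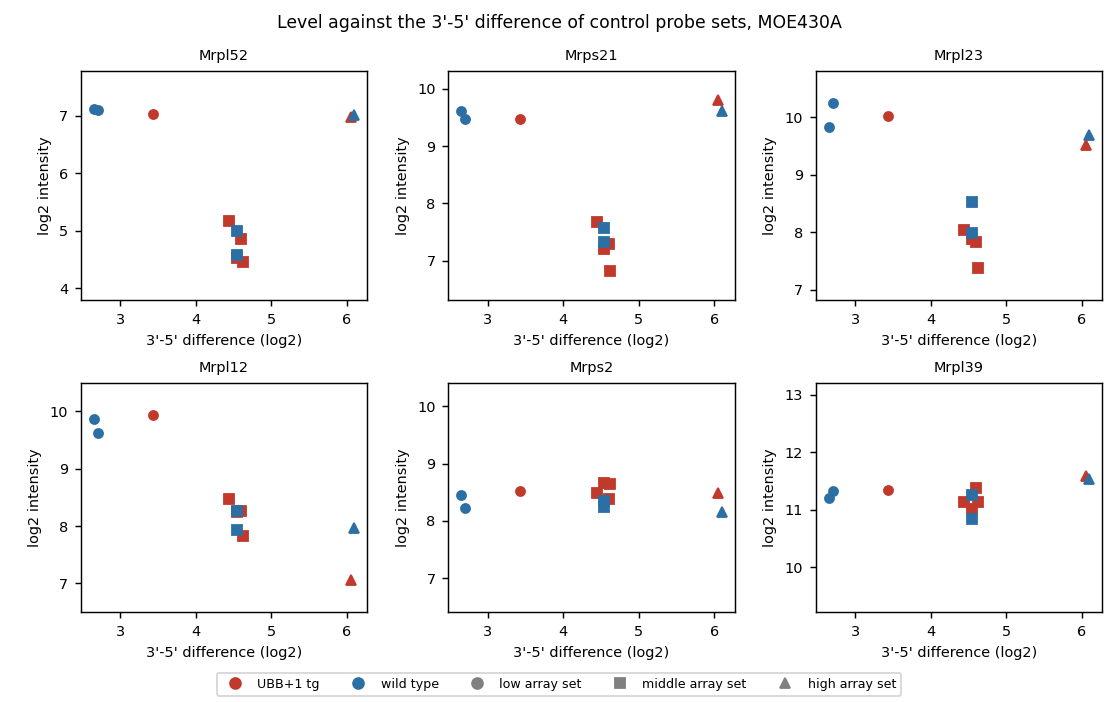
Log2 intensity on MOE430A against the 3'-5' difference of control probe sets in each mouse (UBB+1 tg red, wild type blue, array set as the marker shape), each panel spanning 4 log2 units. Mrpl52 and Mrps21 are about 2 units lower in the middle set than in the low and high sets in both genotypes. Mrps2 and Mrpl39, at their brightest probe sets, stay within a narrow band. Mrpl52 is shown at 1415761_at, its probe set with the widest difference between sets (middle minus low -2.32 among wild-type mice). At its brightest probe set, 1460701_a_at, that difference was -0.49.

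With the array set as a block, differences between the genotypes shrank and became more precise. The median over the 74 genes was -0.12, 61 genes were below 0, 53 had a smaller size of difference, and the median standard error was 0.14. No probe set passed the false discovery rate (lowest adjusted p of a member 0.674 in limma). Mrpl23 came to -0.29 (standard error 0.16), Mrps21 to -0.09 (0.15), Mrps16 to -0.13 (0.18), Mrpl27 to -0.17 (0.17) and Mrpl52 at 1415761_at to -0.05 (0.14). On MOE430B the same probe sets shrank less, to -0.38 (0.20) for Mrpl27 and -0.38 (0.20) for Mrpl52, and Mrpl27 at 1442299_at came to -0.42 (0.11, unadjusted p = 0.00366 and adjusted p = 0.9 in limma). Mrps30 (-0.44, standard error 0.14), Mrps2 (0.24, 0.08), Mrpl35 (-0.32, 0.14), Mrpl49 (0.26, 0.09), Mrpl45 (0.29, 0.11) and Mrpl43 (-0.27, 0.11) kept most of their size. When the 3'-5' difference entered the fit instead, the median was -0.17, and 55 genes were below 0.

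Within single sets the median was 0.07 in the low set (29 of 74 below 0), -0.17 in the middle set (55 below 0) and -0.11 in the high set (46 below 0). Only the middle set, with 4 UBB+1 tg and 2 wild-type mice, was tested on MOE430A. In limma 9 of its 127 member probe sets had an unadjusted p under 0.05 (7.09%, against 5.17% of all) and none passed the false discovery rate (lowest adjusted p of a member 0.83). Of the 74 genes, 13 were below 0 in all 3 sets (17.6%, against 11.2% of all genes), among them Mrpl2, Mrpl23, Mrpl28, Mrpl38, Mrps7, Mrps18c and Mrps25, and 5 were above 0 in all 3 (6.76% against 14.6%), namely Mrpl39, Mrpl49, Mrps2, Mrps17 and Mrps31. On MOE430B 5 of 27 genes were below 0 in all 3 sets (18.5%, against 11.6% of all genes) and 2 above 0 (7.41% against 9.56%). The part of the array sets in the differences between genotypes was not tested beyond these values.

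**Figure D5:**
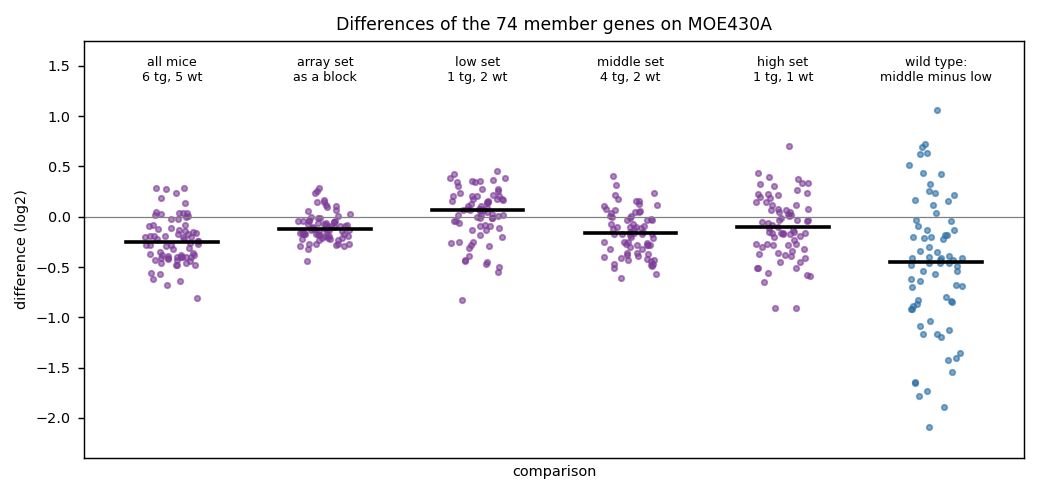
Log2 difference of UBB+1 tg minus wild type for each of the 74 genes on MOE430A over all mice, with the array set as a block and within each set, and, at the right, the middle minus the low set among wild-type mice. Bars are medians, at -0.25, -0.12, 0.07, -0.17, -0.11 and -0.44 from left to right.

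Different probe sets of a gene often differed. On MOE430A 33 genes had 2 or more probe sets, and in 17 of them the signs of the log2 fold changes differed. Mrpl15 had 7, from -0.48 to 0.42, while its 3 brightest lay at -0.10 to -0.01. Mrps25 ran from -0.40 to 0.28 over 3 and Mrpl49 from -0.29 to 0.29 over 2. Mrpl19 (0.04 to 0.28) and Mrpl3 (0.02 to 0.19) were above 0 at all 3 of theirs, and Mrpl44 (-0.35 to -0.16), Mrpl51 (-0.26 to -0.04) and Mrpl11 at none. The further genes with 3 or more were Mrpl1 (-0.17 to 0.11), Mrpl13 (-0.19 to 0.07), Mrpl28 (-0.20 to 0.07), Mrpl41 (-0.25 to 0.00) and Mrps9 (-0.11 to 0.14). On MOE430B Mrps5 ran from -0.06 to 0.07 over 3.

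Most member probe sets were bright. The brightest probe sets of the 74 genes had a median at percentile 84.4 of all probe sets on MOE430A, and of the 27 genes on MOE430B at percentile 81.0. Among the brightest probe sets on MOE430A, the highest signals were those of Mrpl39 (11.27 ± 0.21 in UBB+1 tg and 11.23 ± 0.26 in wild type), Mrpl41 (11.07 ± 0.43 and 11.26 ± 0.29 in the same order), Mrpl22 and Mrpl51. The lowest were those of Mrpl54 (5.65 ± 0.57 in UBB+1 tg and 6.05 ± 0.59 in wild type) and Mrps6 (5.95 ± 0.49 and 6.19 ± 0.56 in the same order). Signals of different probe sets depend on the probes and do not rank the mRNAs.

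Other genes of mitochondrial translation showed no called difference either. Ribosomal proteins with other symbols were at a median of -0.17 over 4 genes on MOE430A, with Dap3, the GTP-binding small-subunit protein, at -0.17 (standard error 0.12), Gadd45gip1 at -0.44 (0.46), Chchd1 at -0.17 (0.28) and Ptcd3 at 0.11 (0.28). With the block Gadd45gip1 came to 0.00, Chchd1 to -0.01 and Ptcd3 to -0.14. Translation factors were at a median of 0.11 over 6 genes (4 above 0), and at -0.03 (3 above 0) with the block. The elongation factors Gfm1 and Tufm were at 0.27 and -0.08, the initiation factor Mtif2 at 0.21, the formyltransferase Mtfmt at 0.18 and the recycling factor Gfm2 at -0.12, and with the block Gfm1 came to 0.09 and Mtif2 to 0.01. Of 16 genes of ribosome assembly and rRNA modification, with a median of -0.06, Mtg1, a GTPase of large-subunit assembly, passed an unadjusted p under 0.05 (8.15 ± 0.10 in UBB+1 tg and 8.56 ± 0.32 in wild type, log2 fold change -0.41, standard error 0.13, adjusted p = 0.984 in limma, -0.40 with the block). In that list the rRNA methyltransferase Mrm2 was at -0.50 (standard error 0.27) and Nsun4 at 0.20 (0.15).

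The 8 mitochondrial aminoacyl-tRNA synthetases on MOE430A had a median of -0.07, with Rars2 at 0.36, Hars2 at -0.36 and Iars2 at -0.20. The 10 genes of mitochondrial transcription and RNA stability had a median of 0.08, with the transcription factor Tfb2m at 0.38, Trmt10c at 0.17 and the RNA-binding protein Slirp at -0.57 (standard error 0.58, -0.09 with the block). On MOE430B the medians were -0.16 over 7 translation factors, -0.06 over 10 assembly genes, -0.05 over 10 synthetases and 0.05 over 4 genes of transcription, with none at an unadjusted p under 0.05 in limma. The named genes there were Tsfm (-0.25), Guf1 (0.27), Tufm (-0.22), Malsu1 (-0.51), Mterf3 (-0.08), Rbfa (-0.29), Cars2 (-0.29), Mars2 (-0.07), Nars2 (-0.17), Tfam (0.34), Trmt10c (0.09), Pnpt1 (-0.10) and the small-subunit protein Ptcd3 (-0.05).

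As a check of the genotype labels, the probe set that reads the transcribed CamKIIα promoter of the transgene was at 8.45 to 9.34 in UBB+1 tg mice and 6.41 to 6.85 in wild-type mice. Array medians lay at 6.32 to 6.34 on MOE430A and 5.49 to 5.50 on MOE430B. The CA3 markers Dkk3, Bok and Socs2 had a mean of 8.93 to 10.41 in UBB+1 tg mice and 9.01 to 10.43 in wild-type mice. The dentate markers had a mean of 4.58 to 5.08 in UBB+1 tg mice and 4.76 to 4.84 in wild-type mice. Prox1 was at percentile 1.78 of MOE430A, Stxbp6 at 17.4, Dsp at 30.6 and Tdo2 at 31. Among dentate markers on MOE430B, C1ql2 was at percentile 73.2, Stxbp6 at 72.5, Tdo2 at 20.6 and Prox1 at 13.5. Means over the marker lists of neurons, CA1, interneurons, astrocytes, oligodendrocytes, microglia, endothelium and choroid plexus overlapped between the genotypes on MOE430A, for example 9.10 to 10.29 in UBB+1 tg and 9.04 to 10.25 in wild type for 4 neuronal genes and 7.55 to 8.09 in UBB+1 tg and 7.5 to 7.90 in wild type for 5 oligodendrocyte genes. On MOE430B all 3 neuronal genes were below 0 (Slc17a7 -0.52, Snap25 -0.16 and Rbfox3 -0.05). Their mean overlapped there too, at 8.85 to 9.44 in UBB+1 tg and 8.98 to 9.74 in wild type. On MOE430A 3 of the 4 neuronal genes were below 0 and Snap25 was at 0.37, and the CA1 markers Pou3f1 and Wfs1 were at -0.16 and -0.08. The mean of the CA2 markers Rgs14 and Pcp4 was 7.8 to 10.19 in UBB+1 tg and 7.77 to 9.07 in wild type, at 0.27 and 0.33 (0.52 and 0.82 with the block). On MOE430B the choroid plexus marker Ttr was at -1.44 (standard error 0.95), and the mean of that list at 6.31 to 8.47 in UBB+1 tg and 6.36 to 9.03 in wild type. The part of these cells in the members' values was not tested.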

How the data were processed

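Values were the intensities that the authors deposited after RMA, linear on MOE430A and log2 values, as the authors deposited them, on MOE430B. RMA corrects background, normalizes by quantiles and summarises probe sets for each kind of array separately, so that levels were not compared across them. MOE430A values were taken to log2. No depth applies to arrays, and the number of mice limits the precision. Samples were grouped by their labels. Whether the mice came from separate litters is not stated, and p-values set the difference between the genotypes against the spread between these mice.

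Wild type was subtracted from UBB+1 tg in linear models (lmFit, then eBayes) in R 4.3.3 with limma 3.58.1, using Benjamini-Hochberg adjustment within each kind of array and a false discovery rate of 10%, the study's check of its main method, which needs single probes. Single probe sets were also compared with two-sided exact permutation tests over mice. Control probe sets and the probe set of the transgene's promoter were left out of the fit, which was tested on simulated data. Array sets came from complete linkage on 1 minus Pearson r into 3 groups. Genes named are the 6 with the smallest p in each direction per kind of array, those of the highest and lowest signal, Mrpl52, stalk, tunnel and decoding proteins, genes with 3 or more probe sets and up to 3 genes of each other list. A few more were named after their values were seen. Members and lists were chosen with earlier results of these data known. Gene positions and promoters are from RefSeq, GRCm38.p6, and all 76 symbols matched. Probe sets were assigned to genes by GEO's platform annotation.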

Additional observations from a re-analysis of the deposited data

Results flagged for a closer look

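In 9 of 94 groups tested (the named probe sets in each genotype), 1 mouse lay far from the rest of its group, where the rule's threshold gives about 1 in 20 by chance in groups that are independent. These groups share their mice. UBB+1 tg mouse tg271, the only UBB+1 tg mouse of the low array set, stood above the other 5 in 6 of them on MOE430A: Mrps6 at 6.91 (others 5.52 to 5.91), Mrpl54 at 6.74 (others 5.09 to 5.67), Mrpl24 at 9.17 (others 7.69 to 8.23), Mrps12 at 9.64 (others 8.46 to 8.85), and the dim probe sets 1438080_at of Mrpl11 at 4.46 (others 3.91 to 4.0) and 1455366_at of Mrpl52 at 4.0 (others 3.70 to 3.81). The other 3 were wild-type mice. Mouse wt287, of the low array set, was at 5.64 for 1430798_x_at of Mrpl15 (others 4.39 to 4.75), mouse wt321 at 4.64 for 1430610_at of Mrpl38 (others 4.17 to 4.25), and mouse wt291 at 3.52 for Mrpl13 on MOE430B (others 3.33 to 3.39).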

How the results depend on the processing

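No member probe set passed the false discovery rate under any alternative, with a lowest adjusted p among the named probe sets of 0.473 in limma (MOE430A, array weights). The count at an unadjusted p under 0.05 on MOE430A, 6 in the fit reported, was 3 with a variance trend and 37 with array weights (33 of them lower), where the share was 29.1% of members and 10.4% of all probe sets. Leaving out each mouse gave 4 to 23, and the 23 (18.1%, 20 of them lower, against 6.66% of all) came without tg271, the only UBB+1 tg mouse of the low array set. On MOE430B the count, 1 in the fit reported, was 2 with a variance trend, 3 with array weights and 3 where the array set was a block. These were 6.06%, 9.09% and 9.09% of members, against 2.95%, 6.13% and 5.06% of all probe sets in the same order. Leaving out each mouse gave 0 to 4, with 0 without wt287 and 4 without tg271 (12.1% of members, against 6.35% of all). The count was 2 without each of tg273, tg274, wt289, wt291 and wt321 (6.06%, against 2.88% to 4.02% of all). The causes were not tested. The median on MOE430A was below 0 under each alternative run, from -0.38 with array weights to -0.12 with the array set as a block (-0.36 to -0.16 over the mice left out), but was 0.07 within the low array set, which was not tested. Of 1004 values of the 47 named probe sets, 22 turned in sign, in 10 probe sets, mostly Mrpl11 at 1438080_at (7) and Mrpl10 (5). Mrps30, Mrps2, Mrpl35, Mrpl43, Mrpl45 and Mrpl49 did not turn. The low and the high array set alone were not among these alternatives. On MOE430A, Mrps30 (0.08), Mrpl35 (0.12) and Mrpl45 (-0.10) had the opposite sign within the high set and Mrpl43 (0.08) within the low set. Mrps2 and Mrpl49 were above 0 in all 3 sets. All mice of MOE430A are on both kinds of array, so that this alternative was run on MOE430B only. No paired analysis was possible because the labels give UBB+1 tg and wild-type mice neither common numbers nor litters.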
